A study of Homo sapiens with 3 samples.

Results

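Interferon-stimulated genes are genes whose transcription is switched on by interferons, and the 42 examined here form a fixed list of well-known ones, chosen by symbol and matched to Ensembl gene IDs. All 42 were found among the 56632 gene IDs of the series, and 34 of them reached 1 CPM (counts scaled to a library of 1e+06 reads) in at least 1 library, a level reached by 13312 genes in all. The RNA came from MCF10Ca1h cells, a malignant human breast line of the MCF10 series kept in medium with horse serum. The GSK484 library came from cells given GSK484, an inhibitor of the citrullinating enzyme PADI4, for 72 h. The CON library came from cells that received the control compound over the same 72 h, which the labels call GSK107 and the deposited table's name calls GSK106. The NT library came from untreated cells, with no time given. All 3 libraries are of 1 cell line, no dose is stated, and each group has 1 library. Hence no test between conditions was possible, and intervals and limits cover counting error only. Fewer cells expressing a gene and less RNA per cell cannot be told apart in such libraries.

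Type I interferons bind the receptor IFNAR1 and IFNAR2, type III interferons bind IFNLR1 and IL10RB, and both signal through the kinases JAK1 and TYK2. STAT2 and IRF9 are parts of the complex that then binds interferon-stimulated response elements in promoters. Many of the induced proteins block virus entry, translation or replication, and epithelial cells express part of the set without infection.

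Promoters of 5 genes are shown because these genes lay on both sides when GSK484 was set against CON, while sharing the same motif. They are the 250 bases before the RefSeq start site (GRCh38.p14), 5′ to 3′ on the gene's strand, with capitals for the core of the interferon-stimulated response element, which is GAAA, 2 bases of any kind and GAAA again, on either strand.
IFIT3: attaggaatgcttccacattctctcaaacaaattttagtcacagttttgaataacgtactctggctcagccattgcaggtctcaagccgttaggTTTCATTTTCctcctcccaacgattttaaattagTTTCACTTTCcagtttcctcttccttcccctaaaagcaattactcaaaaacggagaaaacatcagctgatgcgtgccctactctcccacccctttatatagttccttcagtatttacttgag
IFIH1: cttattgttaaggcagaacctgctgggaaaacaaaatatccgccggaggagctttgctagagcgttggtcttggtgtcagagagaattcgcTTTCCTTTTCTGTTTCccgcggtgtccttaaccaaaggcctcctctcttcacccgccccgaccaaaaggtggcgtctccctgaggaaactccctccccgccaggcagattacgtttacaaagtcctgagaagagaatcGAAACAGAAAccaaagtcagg
SAMD9: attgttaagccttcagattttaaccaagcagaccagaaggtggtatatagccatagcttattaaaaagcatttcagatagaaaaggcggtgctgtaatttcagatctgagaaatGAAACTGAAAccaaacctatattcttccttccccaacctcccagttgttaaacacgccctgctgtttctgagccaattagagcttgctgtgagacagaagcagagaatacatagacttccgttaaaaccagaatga
IFI6: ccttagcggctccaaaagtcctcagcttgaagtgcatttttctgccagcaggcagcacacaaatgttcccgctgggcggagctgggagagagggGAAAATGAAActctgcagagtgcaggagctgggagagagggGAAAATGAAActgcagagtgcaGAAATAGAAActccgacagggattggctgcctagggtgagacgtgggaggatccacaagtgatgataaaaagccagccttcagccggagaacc
ISG15: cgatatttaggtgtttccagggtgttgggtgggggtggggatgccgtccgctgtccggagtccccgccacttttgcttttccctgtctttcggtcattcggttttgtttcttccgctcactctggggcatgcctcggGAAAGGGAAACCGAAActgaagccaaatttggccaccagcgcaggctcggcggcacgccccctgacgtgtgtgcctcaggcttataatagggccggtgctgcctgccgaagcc
IFIT3 lies at chr10:89327747-89327996 on the plus strand, IFIH1 at chr2:162318685-162318934 on the minus strand and SAMD9 at chr7:93117980-93118229 on the minus strand. IFI6 lies at chr1:27672193-27672442 on the minus strand and ISG15 at chr1:1013247-1013496 on the plus strand. In the IFIH1 and ISG15 promoters, a pair of matches overlaps. Promoters were available for 34 of the 42 genes, and 19 of these 34 (55.9%) held the core on either strand, against 431 of 15843 protein-coding promoters of the same length (2.72%). A match describes letters only and shows no binding. Of the 19 genes with the interferon element core, 15 could be compared between GSK484 and CON, of which 6 were higher and 5 lower beyond counting error, where 26.9% of all genes compared were higher and 27.4% lower. Beyond counting error means that the 95% Clopper-Pearson interval of the log2 fold lay wholly above or wholly below 0 and that the larger level was at least 1 CPM. Of the 15 promoters without it, 11 could be compared, with 3 higher and 4 lower. Genes with the motif thus lay on both sides. This split was made without removing the trend on GC content and length described below. With that trend removed, IFIT3, IFIT5, IFIH1 and SAMD9 stayed higher and IFI6 and ISG15 lower beyond counting error. DDX60, PARP14, BST2, IFITM1 and IFITM3 were then within it.

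Total expected counts, the reads estimated to belong to genes, ranged from 70555229 to 92980847 per library. Most epithelial markers were abundant: EPCAM stood at 334, 311 and 330 TPM (transcripts scaled to 1e+06 per library, which allows for gene length) in GSK484, CON and NT. All 7 of the epithelial markers were measured, and 6 of the 7 stood at 10 TPM or more in each library. Of 7 leukocyte markers, which summed to 5.77, 6.98 and 6.53 TPM in the same order, PTPRC, CD3E and CLEC4C had no reads in any library. The other 2 that reached 1 CPM were CD14, at 6.26 CPM in GSK484, against 9.15 in CON and 7.83 in NT, and ITGAM, at 1.08, 0.78 and 1.07 CPM. CD14 was lower in GSK484 than in CON beyond counting error (log2 fold -0.55). Fibroblast markers summed to 2.90, 2.07 and 1.79 TPM and endothelial markers to 0.32, 0.58 and 0.35 TPM in GSK484, CON and NT. The part of these markers, CD14 included, in any result below was not tested. Folds moved with GC content in all genes. The 2030 measured genes under 40% GC had median log2 folds of 0.18 for GSK484 over CON, -0.18 for GSK484 over NT and -0.36 for CON over NT. Folds of the list are also given with a smooth trend on GC content and length removed.

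On the length-corrected scale, a few interferon-stimulated genes were abundant and many were scarce. The 42 genes summed to 1378 TPM in GSK484, against 1357 in CON and 1336 in NT. LGALS3BP, a secreted glycoprotein, IFITM3 and the tetherin gene BST2 supplied most of that sum. LGALS3BP stood at 523 TPM in GSK484, against 494 in CON and 502 in NT. IFITM3, which hinders virus fusion with endosomes, stood at 297, 306 and 272 TPM in the same order, and BST2, which holds budding virus at the cell surface, at 263, 266 and 257. At the other end, 12, 11 and 11 of the 42 genes were below 1 TPM in GSK484, CON and NT, and the median gene was at 4.11, 4.24 and 4.90 TPM.

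Of the list, 8 genes stayed below 1 CPM in every library, among them several that are often used as markers of an interferon response. They were IFI27, IFI44L, HERC5, MX1, MX2, RSAD2, CMPK2 and XAF1. CMPK2, a mitochondrial nucleotide kinase gene, and XAF1, a pro-apoptotic gene, had a count of 0 in all 3 libraries. A count of 0 allows up to 3 counts, or 0.039 CPM in GSK484, against 0.033 in CON and 0.042 in NT. MX1, a GTPase gene against influenza and other viruses, had 45 counts in GSK484, against 51 in CON and 26 in NT, and MX2 had 0, 2 and 2. RSAD2, which encodes viperin, had 0 counts in GSK484, against 14 in CON and 1 in NT. Against the floor of 3 counts in the GSK484 library and with the 14 counts of CON taken as exact, it was at least 3.98-fold lower in GSK484 than in CON. With counting error in both libraries, the interval of the log2 fold ended at -1.502. All of these lie below the minimum set for a comparison.

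**Figure D1:**
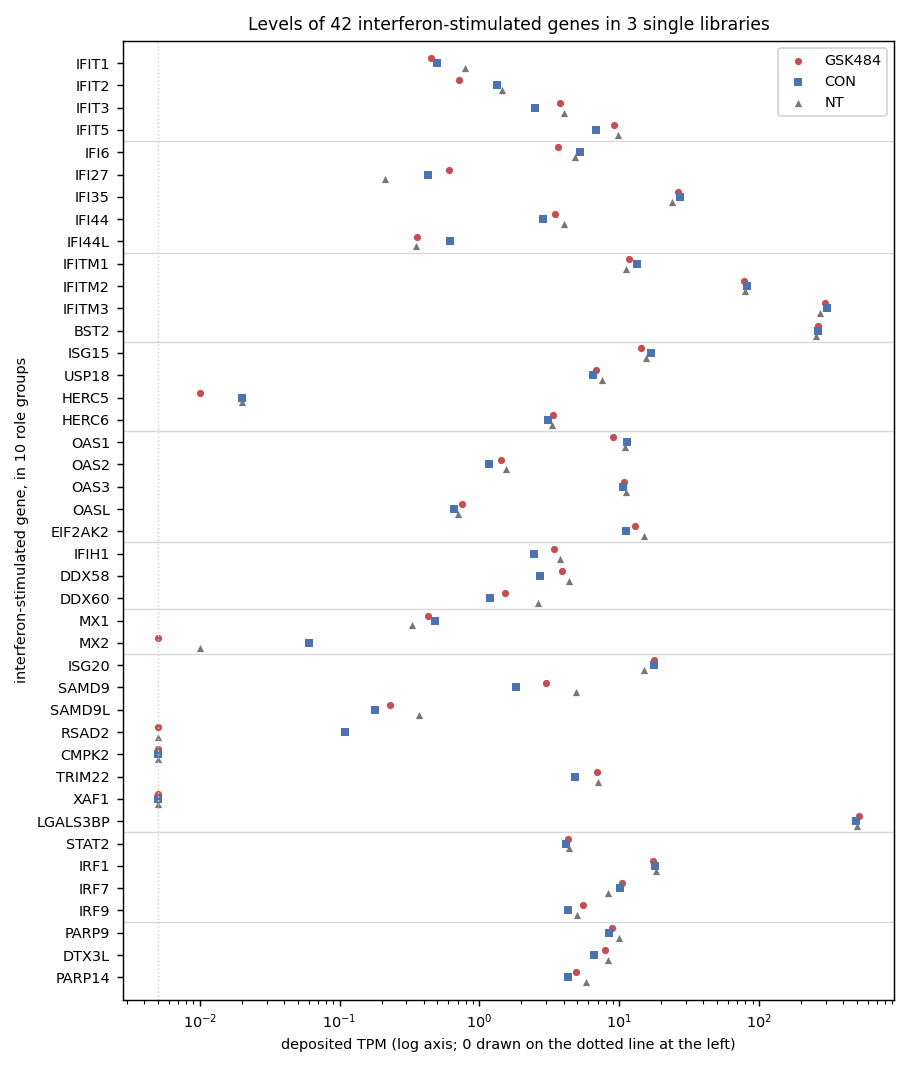
Deposited TPM (log axis) of the 42 interferon-stimulated genes, in 10 role groups, with 1 point per library (GSK484, CON, NT) and values of 0 drawn on the dotted line. LGALS3BP, IFITM3 and BST2 lie above 250 TPM in all 3 libraries, while CMPK2 and XAF1 lie at 0 in all 3.

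GSK484 and CON share the 72 h of exposure and differ in the compound. The interferon-stimulated genes differed in both directions. DDX58, IFIH1, DDX60, IFIT3, IFIT5 and SAMD9 were higher in GSK484, and IFIT2, IFI6, OAS1 and ISG15 were lower. Of the 33 genes with at least 1 CPM in either library, 9 were higher and 11 lower beyond counting error. That is 27.3% and 33.3%, where 26.9% and 27.4% of all 13199 genes compared met the same rule in each direction. The median log2 fold was -0.03, beside -0.0051 over all genes compared, so that the list and all genes had nearly the same centre. With the trend on GC content and length removed, 5 were higher and 6 lower (all genes, 25.7% and 25.5%), and the median was -0.00098. The 6 included EIF2AK2 and PARP9, which were not among the 11 lower without that step. Of the 20 genes beyond counting error, 3 turned in sign (IFITM2, EIF2AK2 and PARP14). Only IFIT2 reached a 2-fold difference, and it was lower (just short of 2-fold, at a log2 fold of -0.997, with DESeq2 size factors, and -0.81 with the deposited TPM), which was the case for 0.273% of all genes (0.197% were at least 2-fold higher, and 0.47% passed in either direction).

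The comparison with NT asks how far treated cells differ from untreated ones, and shares the GSK484 library with the comparison above. Of 34 genes compared, 6 were higher in GSK484 and 15 lower, relative to NT and beyond counting error, while 27.3% and 29.5% of all 13209 genes were so. The median log2 fold was -0.10, beside -0.0028 over all genes, and -0.04 with the trend removed, when 3 were higher and 12 lower (all genes, 23.6% and 22.5%). These 12 were in part other genes than the 15. Of the 21 genes beyond counting error, 6 turned in sign with the trend removed. BST2 and LGALS3BP went from higher to lower, both beyond counting error. No gene of the list differed 2-fold, where 0.265% of all genes were higher and 0.28% lower by that much (0.545% in either direction). CON against NT, which shares a library with each of the others, had 10 higher and 14 lower of 34, with 35.5% and 29.4% of all 13221 genes. With the trend removed these counts were 4 and 9 (all genes, 27.2% and 25.7%), and 9 of the 24 genes beyond counting error turned in sign. SAMD9 alone was at least 2-fold lower in CON, as were 1.35% of all genes, and none was 2-fold higher, as 0.333% of all genes were (1.68% in either direction). Across the 34 genes, GSK484 had the highest CPM of the 3 libraries for HERC6 alone (2.9%, where it was highest for 24.7% of all measured genes). It was the lowest for 10 (29.4%, near the 26.6% of all measured genes) and in between for 23 (67.6%, where 48.7% of all were). This order took no account of counting error or of the trend, and HERC6 was within counting error in every comparison. With the trend removed, HERC6 was at -0.008 against CON and no longer highest in GSK484. IFIH1 then was, at 0.34 against CON and 0.02 against NT, the latter within counting error. The shares with the trend removed were not counted.

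**Figure D2:**
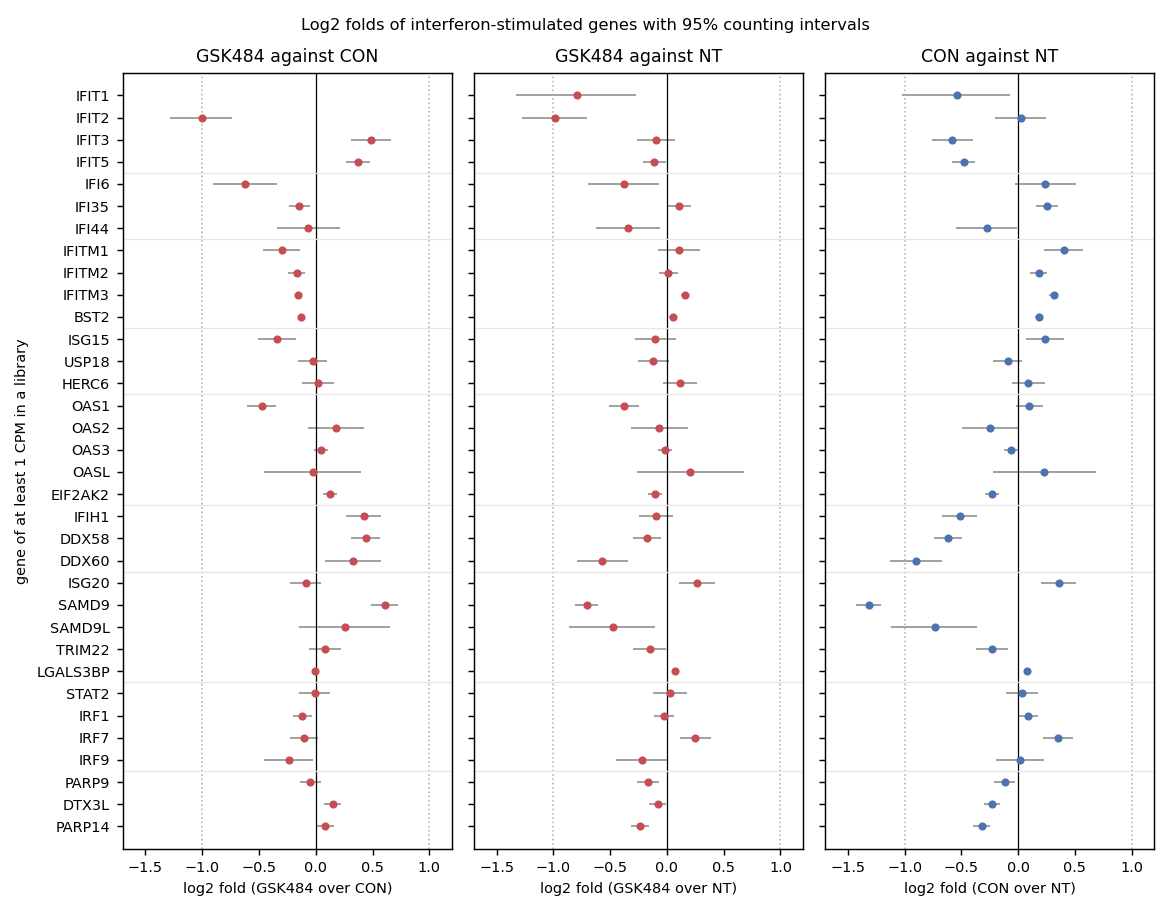
Log2 folds (x axes) of the 34 interferon-stimulated genes with at least 1 CPM in a library, in panels for GSK484 over CON, GSK484 over NT and CON over NT, with bars for the 95% counting interval and dotted lines at 2-fold. Genes with no point in the first panel were below 1 CPM in both libraries. IFIT2 lies just past the 2-fold line in the first panel and at -0.98 in the second, and SAMD9 at -1.31 in the third.

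The IFIT genes encode tetratricopeptide proteins that bind foreign RNA and hinder its translation, and relative to CON 2 of the 3 compared were higher and 1 was lower. IFIT2 had 159 counts in GSK484 (2.04 CPM), against 374 in CON (4.10 CPM) and 288 in NT (4.04 CPM). GSK484 was thus the low library. It was 2.01-fold lower in GSK484 than in CON (log2 counting interval -1.28 to -0.73) and 1.98-fold lower than in NT (-1.27 to -0.70). With the trend removed the log2 folds were -1.09 and -0.86, and CON was then higher than NT (0.23, beyond counting error). IFIT3 had 7.39 CPM in GSK484, against 5.28 in CON and 7.90 in NT. Here CON was the low library: the log2 fold of GSK484 was 0.48 against CON (interval 0.31 to 0.66) and -0.09 against NT (-0.26 to 0.08). IFIT5 had the same order, at 20.0 CPM in GSK484, against 15.5 in CON and 21.7 in NT, with a log2 fold of 0.37 against CON (0.26 to 0.47), or 0.16 with the trend removed. IFIT1 was sparse, at 51 counts in GSK484, against 71 in CON and 81 in NT. It was lower than NT in both GSK484 (log2 fold -0.79, interval -1.33 to -0.27) and CON (-0.54, interval -1.03 to -0.07, and within counting error with the trend removed). IFIT1 reached 1 CPM in NT alone, the library where it was highest. IFIT2 and IFIT3 are neighbours on chromosome 10 and both had whole counts, that is, no reads divided with other genes.

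The cytosolic RNA sensors MDA5 (IFIH1) and RIG-I (DDX58), and the related helicase DDX60, were all higher in GSK484 than in CON. DDX58 had 14.1 CPM in GSK484, against 10.4 in CON and 15.9 in NT. IFIH1 had 9.72 CPM in GSK484, against 7.26 in CON and 10.4 in NT. DDX60 had 3.62 CPM in GSK484, against 2.88 in CON and 5.37 in NT. CON was the lowest library for all 3. Against CON, GSK484 had log2 folds of 0.44 for DDX58 (interval 0.31 to 0.57), 0.42 for IFIH1 (0.27 to 0.57) and 0.33 for DDX60 (0.08 to 0.58). With the trend removed they were 0.27, 0.34 and 0.16, and the DDX60 value was then within counting error. Against NT, DDX60 was lower in GSK484 (-0.57, interval -0.80 to -0.34), DDX58 slightly lower (-0.18, interval -0.30 to -0.06, and -0.01 with the trend removed) and IFIH1 within counting error.

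SAMD9 and SAMD9L, neighbours on chromosome 7, encode antiviral factors that restrict poxviruses. SAMD9 had 1329 counts in GSK484 (17.1 CPM), against 1022 in CON (11.2 CPM) and 1985 in NT (27.8 CPM). All 3 libraries differed beyond counting error, with GSK484 in between. Its log2 fold for GSK484 was 0.61 against CON (interval 0.49 to 0.73) and -0.71 against NT (-0.81 to -0.61), and for CON against NT it was -1.31 (-1.42 to -1.20). SAMD9 also had the lowest GC content of the measured list, 36.1%, and removal of the trend left 0.28, -0.45 and -0.73. SAMD9L had the same order at 1.39 CPM in GSK484, against 1.16 in CON and 1.94 in NT, but its difference from CON was within counting error (0.25, interval -0.15 to 0.66, and -0.00098 with the trend removed).

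The oligoadenylate synthetase genes, which make the second messenger that activates RNase L, also differed among themselves. OAS1 had 827 counts in GSK484 (10.6 CPM), against 1346 in CON (14.8 CPM) and 983 in NT (13.8 CPM), so that GSK484 was the low library. Its log2 fold was -0.47 against CON (interval -0.60 to -0.35) and -0.38 against NT (-0.51 to -0.24), and -0.39 and -0.40 with the trend removed. OAS3, its neighbour on chromosome 12, was at 52.2, 50.6 and 52.8 CPM in GSK484, CON and NT, within counting error in all comparisons. OAS2 was at 3.47, 3.06 and 3.63 CPM and OASL at 1.13, 1.15 and 0.98 CPM in the same order, with no difference beyond counting error. The kinase gene EIF2AK2 (PKR), which stops translation on double-stranded RNA, was at 13.0 TPM in GSK484, against 11.2 in CON and 15.0 in NT. Its log2 fold of 0.13 against CON (0.07 to 0.19) turned to -0.10 with the trend removed, lower beyond counting error. Against NT it turned from -0.10 to 0.10, higher beyond counting error. Part of its reads were divided with other genes.

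IFI6, a small mitochondrial and endoplasmic reticulum protein gene, was another gene at its lowest in GSK484. It had 161 counts in GSK484 (2.07 CPM), against 290 in CON (3.18 CPM) and 192 in NT (2.69 CPM). The log2 fold was -0.62 against CON (interval -0.91 to -0.34) and -0.38 against NT (-0.69 to -0.07), or -0.47 and -0.50 with the trend removed. IFI35 was at 22.6 CPM in GSK484, against 25.0 in CON and 21.0 in NT, a log2 fold of -0.14 against CON (-0.24 to -0.05, and within counting error with the trend removed). IFI44 was at 2.52, 2.63 and 3.18 CPM in the same order, with a log2 fold of -0.34 against NT (-0.62 to -0.06, and within counting error with the trend removed). IFI44L, the neighbour of IFI44 on chromosome 1, had 52, 79 and 43 counts and IFI27 had 5, 14 and 4, too few for a comparison.

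ISG15, a ubiquitin-like protein that is attached to other proteins, had 507 counts in GSK484 (6.51 CPM), against 751 in CON (8.23 CPM) and 498 in NT (6.99 CPM). CON was the high library on this scale. The log2 fold of GSK484 was -0.34 against CON (interval -0.50 to -0.17) and -0.10 against NT (-0.28 to 0.08), while with the trend removed the values were -0.20 and -0.29, both beyond counting error, and CON was no longer above NT (-0.09). The other genes of the ISG15 system were within counting error against CON or below 1 CPM. USP18, which removes ISG15, was at 11.4 CPM in GSK484, against 11.6 in CON and 12.4 in NT, with divided reads. HERC6, a relative of the ISG15 ligase gene HERC5, was at 10.3, 10.1 and 9.50 CPM, and HERC5 itself had 2, 5 and 2 counts.

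The membrane restriction factors were all lower in GSK484 than in CON by small amounts, and for IFITM2 the direction turned once the trend was removed. BST2 was at 187 CPM in GSK484, against 204 in CON and 181 in NT, with a log2 fold of -0.13 against CON (interval -0.16 to -0.10). IFITM3 was at 158, 176 and 142 CPM in the same order, with -0.15 against CON (-0.19 to -0.12) and 0.16 against NT (0.12 to 0.20, or 0.03 and within counting error with the trend removed). IFITM2 (-0.17 against CON) and IFITM1 (-0.30) had divided reads, as IFITM3 did, and the genes that shared them are not named in the tables, so their values are uncertain. With the trend removed the log2 folds against CON were -0.01 for BST2, -0.0036 for IFITM3, 0.02 for IFITM2 and -0.13 for IFITM1, all within counting error.

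Among the transcription factor genes the differences were small. STAT2 was at 10.3 CPM in GSK484, against 10.4 in CON and 10.1 in NT, within counting error in every comparison. IRF1 was at 26.4, 28.6 and 26.9 CPM in the same order, a log2 fold of -0.12 against CON (interval -0.20 to -0.03, and within counting error with the trend removed). IRF7, which drives interferon genes, was at 12.8 CPM in GSK484, against 13.8 in CON and 10.8 in NT, with 0.25 against NT (0.11 to 0.39) and 0.06, within counting error, after removal of the trend. IRF9 was at 3.97, 4.69 and 4.63 CPM, and its log2 fold of -0.24 against CON (-0.46 to -0.03, and within counting error with the trend removed) had the opposite sign in the deposited TPM (5.48 in GSK484, against 4.28 in CON and 5.00 in NT). The effective length of IRF9 in the deposited tables was 848 bases in GSK484 and 1187 in CON, and its reads were divided. Against CON, the log2 folds were 0.08 for PARP14, -0.05 for PARP9 and 0.15 for DTX3L. PARP9 and DTX3L, an ADP-ribosyltransferase and a ubiquitin ligase that act together, had divided reads. With the trend removed the values were -0.07 for PARP14, -0.11 for PARP9 and 0.05 for DTX3L. Only PARP9 was then beyond counting error. All 3 were lower than NT, with log2 folds of -0.24 to -0.08, and -0.06 to 0.05, all within counting error, with the trend removed. ISG20, an exonuclease gene, was at 9.73, 10.4 and 8.09 CPM in GSK484, CON and NT, 0.27 above NT on the log2 scale (interval 0.11 to 0.42). TRIM22, a ubiquitin ligase gene, was at 9.99, 9.46 and 11.1 CPM in that order, with a log2 fold of 0.08 against CON, within counting error. In the deposited TPM it was at 6.90, 4.84 and 7.07, a log2 fold of 0.50 against CON. Its effective length was 1692 bases in GSK484 and 2115 in CON. LGALS3BP had a log2 fold of -0.01 against CON (-0.02 to 0.01), the narrowest interval of the list.

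Across the 34 measured genes, the folds followed GC content, as the plot of log2 fold and GC content shows. Pearson's r was 0.80 and Spearman's rho 0.83 for CON against NT, 0.58 and 0.63 for GSK484 against NT, and -0.47 and -0.61 for GSK484 against CON. Over all 12933 measured genes of known GC content, Spearman's rho was 0.59, 0.52 and -0.31 in the same order. These values describe genes within the same 3 libraries, which are not independent, so no test was made. The 6 list genes under 40% GC had a median log2 fold of -0.61 for CON against NT, and the 16 with at least 50% GC had 0.20. IFIT2, IFI6 and OAS1 were lower in GSK484 beyond counting error than in CON and in NT, both with and without the trend removed, and these comparisons share the GSK484 library. By order alone, GSK484 was the lowest library for 26.6% of all measured genes. The share of all genes that met the fuller rule was not counted.

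**Figure D3:**
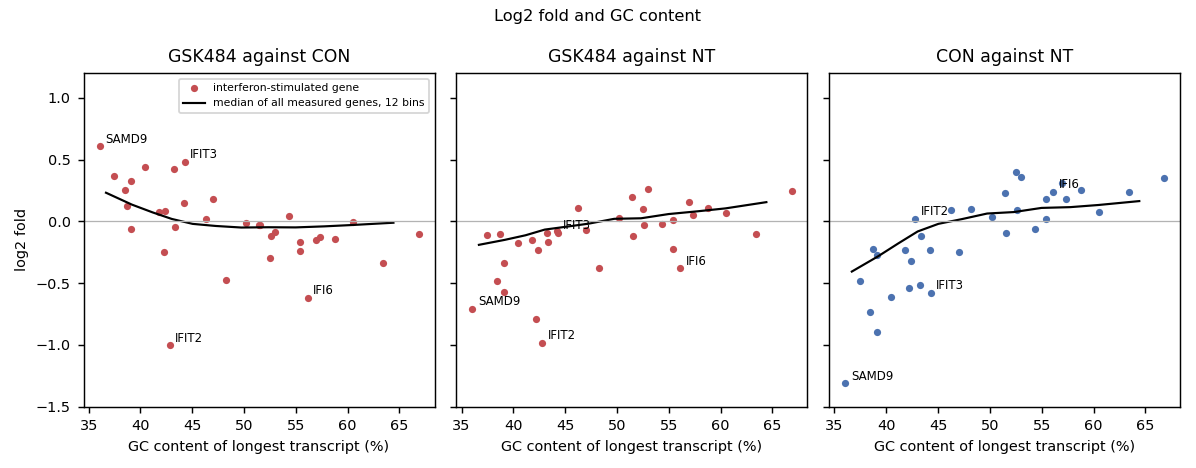
Log2 fold (y axis) against GC content of the longest annotated transcript (x axis, %) for the 34 measured interferon-stimulated genes (points), with the median of all measured genes in 12 bins of GC content (black line). SAMD9, at 36.1% GC, lies at 0.61, -0.71 and -1.31 in the panels from left to right, and IFIT2 lies below the line in the first and second panels.

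Most signalling genes upstream of the list were measured, while nearly all interferon genes were not. Of 10 interferon genes, only IFNE, the interferon epsilon made constitutively by epithelium of the female reproductive tract, reached 1 CPM. It had 143 counts in GSK484 (1.66 TPM), against 139 in CON (1.28 TPM) and 128 in NT (1.64 TPM), within counting error. IFNB1 had 0, 1 and 0 counts, IFNA1 had 2, 0 and 10, and the 7 others had none in any library. All 9 receptor and kinase genes were measured, of which 3 were higher (33.3%) and 2 lower (22.2%) when GSK484 was set against CON, close to the 26.9% and 27.4% of all genes. The largest log2 folds against CON were 0.40 for JAK2 (0.18 and within counting error with the trend removed), -0.19 for JAK1 (-0.25) and 0.10 for IFNAR1 (-0.0069).

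Of 13 matched sensor and adaptor genes, 11 could be compared, and 4 were higher (36.4%) and 2 lower (18.2%) relative to CON, where 26.9% and 27.4% of all genes were. IFI16, a nuclear DNA sensor gene, had 52.0 CPM in GSK484, against 33.3 in CON and 48.9 in NT. Its log2 fold was 0.64 against CON (interval 0.58 to 0.71), or 0.50 with the trend removed, and 0.09 against NT (0.02 to 0.15). RNF135, a ubiquitin ligase gene that activates RIG-I, had -0.29 against CON (-0.24 with the trend removed), and TBK1, the kinase of IRF3, had 0.12 (-0.04 with the trend removed). TLR3, the endosomal RNA sensor gene, was at 2.57 CPM in GSK484, against 2.55 in CON and 4.14 in NT, so that both treated libraries were lower than the untreated one (log2 fold -0.69 for GSK484 and -0.69 for CON, or -0.50 and -0.30 with the trend removed). TLR3 was outside the naming rule and was chosen after its values were seen. The sensor helicase gene DHX58, also outside that rule, was within counting error against CON (log2 fold -0.04, interval -0.37 to 0.28). Of 8 negative regulators, 7 could be compared, with 2 higher and 1 lower than CON (28.6% and 14.3%, beside the same shares of all genes), the largest folds being 0.19 for PTPN11, 0.18 for PTPN2 and -0.12 for IRF2 (0.04, 0.09 and -0.11 with the trend removed). PADI4 itself had 47 counts in GSK484 (0.60 CPM), against 62 in CON (0.68 CPM) and 47 in NT (0.66 CPM). In the deposited TPM it was at 0.70, 0.51 and 0.37 in the same order. These levels lie below the minimum of 1 CPM set for a comparison.

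**Figure D4:**
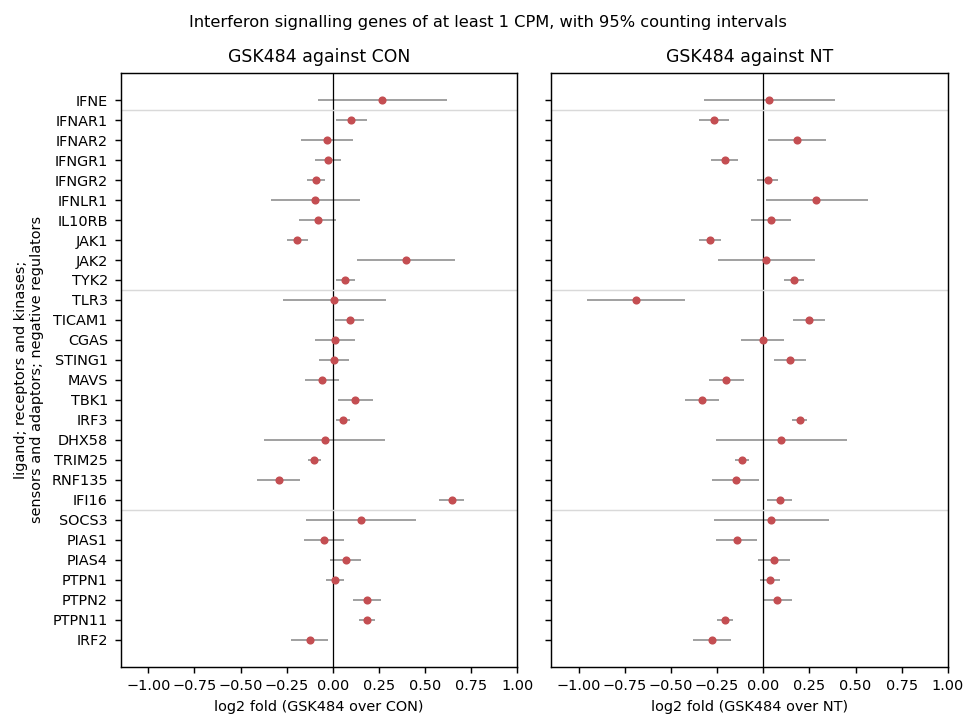
Log2 folds with 95% counting intervals for the 28 interferon signalling genes of at least 1 CPM (ligand, receptors and kinases, sensors and adaptors, negative regulators), for GSK484 against CON and GSK484 against NT. IFI16 lies at 0.64 in the left panel, and TLR3 at -0.69 in the right panel.

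A further 36 interferon-responsive genes outside the list of 42 also differed in both directions. Of 30 compared, 6 were higher (20.0%) and 11 lower (36.7%) relative to CON, where 26.9% and 27.4% of all genes were, with a median log2 fold of -0.05. Against NT, 6 of 29 were higher and 10 lower, where 27.3% and 29.5% of all genes were, with a median of -0.03. The guanylate-binding protein genes GBP1 and GBP3 had log2 folds of 0.28 and 0.32 against CON and of -0.14 and -0.15 against NT, with divided reads, and the values against NT were within counting error with the trend removed. GBP2 was within counting error against CON (-0.11), and GBP4 and GBP5 had a count of 0 in every library. LAMP3, a lysosomal membrane protein gene, was at 48 counts in GSK484 (0.62 CPM), against 104 in CON (1.14 CPM) and 48 in NT (0.67 CPM). Its log2 fold was -0.88 against CON (interval -1.41 to -0.38). LAMP3 reached 1 CPM in CON alone, the library where it was highest, and that level let it enter the comparison. Against NT the value was -0.13 (-0.74 to 0.48), below the minimum set for a comparison.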

How the data were processed

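Gene-level RNA-seq tables of 3 libraries, 1 per group, were read. The deposited expected counts estimate the reads of each gene before any scaling and can be fractional, per the file headers. TPM, also deposited by the authors, takes the effective length into account. RSEM and hg19 were used, per the submitters' processing notes. For the RSEM version, aligner, annotation release and strand setting, the sources used here give nothing, so genes with antisense overlap are uncertain. Per the labels' protocols, libraries were made from total RNA with a stranded kit and read as pairs of 125 bp. Groups were taken from the sample titles.

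Counts were scaled to CPM with TMM factors (edgeR 4.0.16, R 4.3.3), without any count model. A prior count of 0.5, scaled to each library, entered the log2 folds. The 95% intervals are Clopper-Pearson on counts rounded to whole numbers. A gene was compared where the larger CPM was at least 1. Divided reads means expected counts that are not whole, within 0.005, in at least 1 of the 3 libraries, which held for 8 of the 34 measured genes. For the trend, natural splines of GC content and of effective length were fitted over 8656 protein-coding genes whose mean over the 3 libraries was at least 10 CPM. GC content came from GENCODE release 29 and was known for 97.2% of measured genes. Genes of unknown GC content drop out of that fit. The computation was tested on simulated data. Gene IDs were given symbols through a name table and GENCODE 29. Of 143 list entries, IKBKE and PECAM1 matched no gene ID. Hence 13 of the 14 sensor and adaptor genes were matched. Promoters came from RefSeq (GRCh38.p14), a build other than that of the tables.

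Genes were described in full where they differed 2-fold, had one of the largest folds against CON or the highest TPM in their role group, with up to 3 genes per pathway list. All other genes of the 42 are accounted for. Some signalling and marker genes are not reported here. The genes and lists were chosen with earlier results of these data known. The alternatives were DESeq2 1.42.0 size factors, total counts, the deposited TPM with a pseudocount of 0.1, a prior count of 2, no CPM minimum or 5 CPM, whole counts alone and the trend removed.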

Additional observations from a re-analysis of the deposited data

How the results depend on the processing

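With 1 library per group, no replicate could be left out. No paired analysis was possible because each group holds a single library. In GSK484 against CON, the genes higher beyond counting error became 5 once the trend on GC content and length was taken out. The genes lower became 6 with the trend removed and 7 with whole counts alone, where 25 genes were left. The single gene at least 2-fold lower, IFIT2, fell short of 2-fold with DESeq2 size factors (count 0, log2 fold -0.997), total counts (0, -0.96), a prior count of 2 (0, -0.998) and the deposited TPM (0, -0.81). A minimum of 5 CPM left it out (0), and no minimum gave 2, RSAD2 being added. In GSK484 against NT, the genes higher became 3 with the trend removed, and the genes lower were then in part other genes. In CON against NT, the trend's removal gave 4 higher, 9 lower and 0 at least 2-fold lower (SAMD9 at -0.73), the deposited TPM gave 2 at least 2-fold lower, and no minimum gave 1 at least 2-fold higher. The list median for GSK484 against NT ranged from -0.11 to -0.04. For GSK484 against CON it was 0.01 with total counts and 0.08 with TPM, where the median of all genes was 0.10. For CON against NT it was 0.03 with no minimum and -0.16 with TPM, where that of all genes was -0.08. The other counts stayed within 1.5 times those reported. Where counts are below about 100, as for IFIT1, depth limits what can be seen.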

Other observations

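Several genes of the list are neighbours with no protein-coding gene between them, and their values can be set side by side. IFIT1 and IFIT5, on chromosome 10, had log2 folds of -0.25 and 0.37 for GSK484 against CON, where IFIT1 was below 1 CPM, and of -0.79 and -0.11 for GSK484 against NT. IFITM2, IFITM1 and IFITM3, on chromosome 11, had -0.17, -0.30 and -0.15 against CON, and 0.01, 0.10 and 0.16 against NT. OAS1, OAS3 and OAS2, on chromosome 12, had -0.47, 0.04 and 0.18 against CON. SAMD9 and SAMD9L had 0.61 and 0.25 against CON and -0.71 and -0.48 against NT. With the trend removed, SAMD9 was at 0.28 against CON and -0.45 against NT. SAMD9L was then at -0.00098 and -0.26 in the same order, both within counting error. Gene order was taken from the RefSeq annotation of GRCh38.p14.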
